A study of Mus musculus with 14 samples.

Results

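The Hedgehog genes described here are the 9 core genes of the pathway, picked by gene symbol from the 53465 genes of a mouse count table. They are the ligand genes Shh, Ihh and Dhh, the receptor genes Ptch1 and Smo, the transcription factor genes Gli1, Gli2 and Gli3, and the ligand-binding inhibitor gene Hhip. Every one of the 9 symbols matched 1 row. Expression is given as CPM, the reads of a gene scaled to the total counted in that library.

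RNA-seq libraries from polyA-selected RNA were made from wild-type C57BL/6 embryos with no treatment, in 7 groups of 2 libraries. The aorta-gonad-mesonephros region (AGM), which surrounds the dorsal aorta and gives rise to blood stem cells, makes up 6 libraries, from 2 sequencing rounds with 3 labelled ages each, E9.5, E10.5 and, as the last, E11.5. Under the label E9.5 this tissue is instead the hind part of the embryo together with the PsP (para-aortic splanchnopleura), the precursor of the AGM. The other 8 libraries are dorsal skin of 4 ages, the earliest E9.5 and the others E10.5, E12.5 and, as the last, E14.5. Of these, 4 libraries are titled ES and 4 are titled E, from different sequencing projects. Total counts ran from 6770338 in ES skin at E12.5 to 29534551 in the round 1 AGM library labelled E9.5. Nothing in the labels says that the libraries of a group came from separate embryos or how many were pooled, and the p-values speak only of the spread among these libraries, which may be technical. These are bulk tissues, in which fewer cells of a type and less RNA per cell cannot be told apart.

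In 2 respects the libraries went against their labels. The ES libraries stood apart from the E libraries of the same age, with a correlation of log2 CPM of 0.67 to 0.756 across genes, against 0.987 to 0.99 between the AGM rounds of an age. Keratinocyte markers summed to 2.2 to 3.84 CPM in ES skin and to 19.5 to 4976 CPM in E skin, where the highest sum was at E14.5. The 2 sets are therefore kept apart below. In the AGM, the developmental timing gene Lin28a, which declines with embryonic age in many tissues, ran against the labels, at 23, 121 and 571 CPM in round 1 and 40.8, 129 and 496 CPM in round 2 in the order of the labels. In E skin Lin28a ran the other way, at 4 rising ages, with 366, 84.6, 0.667 and 0.940 CPM. Cdx2, a gene of the embryo's tail end, was at 49.2 and 23.1 CPM under the label E11.5 and at 0.474 and 0.247 CPM under the label E9.5. Wt1, a gene of the urogenital ridge, was at 8.86 and 8.87 CPM under the label E11.5 and at 117 and 104 CPM under the label E9.5. These stage genes were chosen after their values were seen, and every AGM group below is named by its label only.

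Hedgehog ligands are secreted proteins that bind Patched receptors. An unbound Patched 1 holds back Smoothened at the primary cilium. Once ligand binds, Smoothened becomes active and the Gli proteins act on their target genes, among them Gli1, Ptch1 and Hhip, so that the RNA of these genes is widely used as a readout of the pathway. Gli2 is mainly the activator and Gli3 mainly a repressor. In the embryo Shh comes from the notochord, the floor plate of the neural tube, the gut lining and the limb bud, and later from the hair placodes of the skin. Ihh comes from maturing cartilage and gut, and Dhh from Schwann cells, endothelium and gonad.

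The members lie on mouse chromosomes 1, 5, 6, 8, 10, 13 and 15 (GRCm38, coordinates of the whole gene as in the deposited table). Shh spans 28456815 to 28467256 on chromosome 5, Ihh 74945315 to 74951672 and Gli2 118834132 to 119053619 on chromosome 1, and Dhh 98893031 to 98898540 on chromosome 15. Ptch1 spans 63508328 to 63573598 and Gli3 15463235 to 15730026 on chromosome 13. Smo spans 29735503 to 29761365 on chromosome 6, Gli1 127329882 to 127341974 on chromosome 10 and Hhip 79965851 to 80058006 on chromosome 8. Smo and Gli3 lie on the plus strand and the other members on the minus strand. In GENCODE M21, exons of 5 members, Shh, Dhh, Gli1, Gli3 and Hhip, overlap an exon of another gene on the opposite strand, such as Arhgap9 for Gli1, and Dhh also overlaps Rhebl1 on its own strand. Whether counting used strand is not stated, and reads of such pairs may not be told apart.

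The 250 bases before the RefSeq start site are shown for Ptch1 and Hhip, because both are known Gli targets and both were far lower in ES skin than in E skin, as described below. They are written 5′ to 3′ on the gene's strand, which is minus for both. In capitals is the closest match to the Gli-binding letters GACCACCCA, or the first of equally close matches. The Hhip window lies just outside the gene. The Ptch1 window lies inside the deposited span of the gene, upstream of one of its transcript starts, and overlaps no annotated exon.
Ptch1, chr13:63565736-63565985: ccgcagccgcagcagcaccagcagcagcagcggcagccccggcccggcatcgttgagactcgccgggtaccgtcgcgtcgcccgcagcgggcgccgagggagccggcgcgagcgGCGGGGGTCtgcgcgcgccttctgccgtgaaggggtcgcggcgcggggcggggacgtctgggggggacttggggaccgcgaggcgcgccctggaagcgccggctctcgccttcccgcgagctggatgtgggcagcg
Hhip, chr8:80058009-80058258: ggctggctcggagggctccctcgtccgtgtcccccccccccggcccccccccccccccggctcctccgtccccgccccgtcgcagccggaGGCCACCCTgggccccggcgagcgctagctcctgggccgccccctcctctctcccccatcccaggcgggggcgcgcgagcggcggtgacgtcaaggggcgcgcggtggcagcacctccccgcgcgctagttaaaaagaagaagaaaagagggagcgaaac
The search covered both strands. The marked match has 3 mismatches in the Ptch1 window, on the strand opposite to the gene, and 2 in the Hhip window, on the gene's strand. No other match in either window has fewer, but the Ptch1 window holds another with as many. Of all 32851 RefSeq windows of this length, 98.6% hold a match with that many mismatches as Ptch1 or fewer and 51.8% one with as many as Hhip or fewer. An exact match is in 0.225% of the windows and in none of the 7 members' windows searched. GC content is 78.4% in the Ptch1 window and 76% in the Hhip window.

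Divided by the length of each gene's exons in kilobases, Smo had the highest median of the members in all 3 sets of libraries, at 43.0 CPM per kilobase in AGM, 12.6 in ES skin and 37.3 in E skin. In the AGM, Ptch1, Gli1 and Gli3 followed with medians of 20.2, 19.9 and 17.0 CPM per kilobase, and the ranges of neighbours in that order overlapped. Gli2 at 13.7, Shh at 8.74 and Hhip at 2.97 CPM per kilobase came next, each with a range that did not overlap that of the gene above it. Dhh and Ihh were lowest in AGM, with medians of 0.371 and 0.268 CPM per kilobase and overlapping ranges. In E skin the order was Smo, Gli3, Gli2, Ptch1, Gli1, Shh, Hhip, Ihh and Dhh, and each gene's range over the 4 ages overlapped that of the next. In ES skin Gli1 dropped to a median of 0.347 CPM per kilobase, below Gli3 at 5.07, Ptch1 at 1.86 and Gli2 at 1.84.

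**Figure D1:**
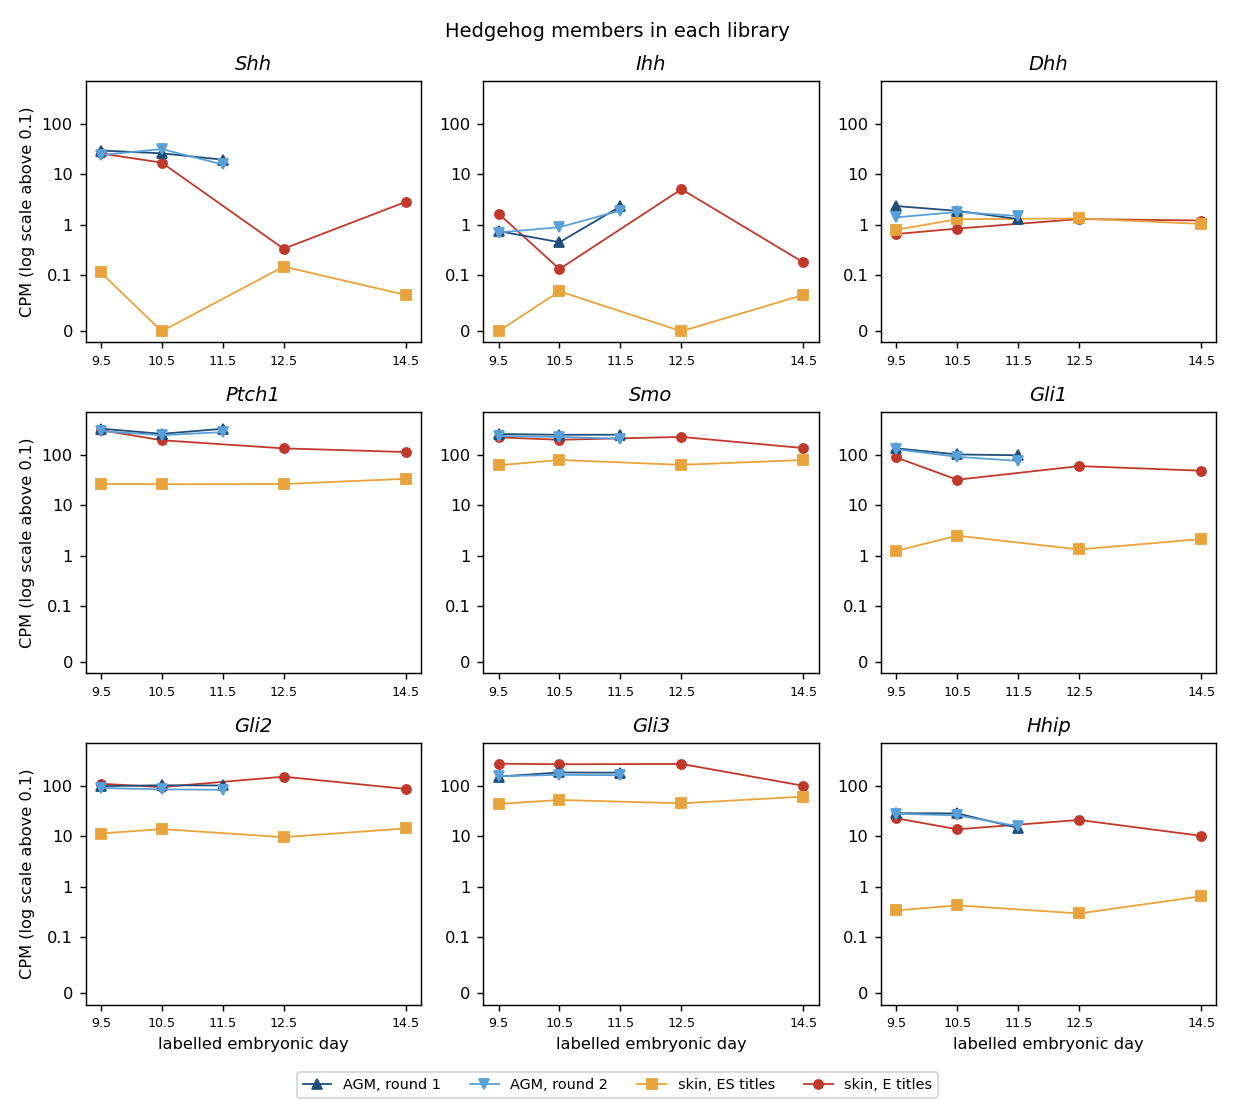
CPM of the 9 Hedgehog members (log scale above 0.1 CPM, linear below) against the labelled embryonic day, with 1 point for each library and lines joining the AGM rounds, ES skin and E skin. Ptch1, Smo, Gli1, Gli2, Gli3 and Hhip lie lower in ES skin than in E skin at every age, and Shh and Ihh in E skin move by more than 10-fold between neighbouring ages.

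In ES skin the receptors, the Gli genes and Hhip were all below their levels in E skin, and RNA of the ligand genes Shh and Ihh was at 0 or 1 read in each library. Gli1, itself a transcriptional target of the pathway, was at 1.25, 2.49, 1.33 and 2.14 CPM in ES skin from E9.5 to E14.5, against 88.2, 32, 59.6 and 48.3 CPM in E skin. Its highest ES value was more than 10-fold under its lowest E value. Hhip, which binds ligand at the cell surface and limits its reach, was at 0.340, 0.427, 0.295 and 0.648 CPM in ES skin, against 22.7, 13.7, 21 and 10.2 CPM in E skin. Its ES values rest on only 3, 6, 2 and 10 reads. The groups did not overlap for either gene. With age as a block, edgeR's quasi-likelihood test put Hhip at a log2 difference of -4.83 ± 0.49 (SE, adjusted p = 0.000747) and Gli1 at -4.55 ± 0.46 (adjusted p = 0.000749), each lower in ES skin at 4 of 4 ages.

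Ptch1, the receptor that is also induced by ligand, was at 26.5, 26.1, 26.3 and 33.4 CPM in ES skin, against 308, 194, 134 and 113 CPM in E skin. The ES values were nearly level over the ages, while the E values fell with every age step. Its log2 difference was -2.30 ± 0.32 (adjusted p = 0.00188), and the difference within an age ranged from 3.39-fold at E14.5 to 11.6-fold at E9.5. Smo, the signal transducer, had the smallest difference of those that passed, at 61.7, 78.9, 63.1 and 78.6 CPM in ES skin, against 221, 198, 225 and 136 CPM in E skin (log2 -1.12 ± 0.21, adjusted p = 0.00607).

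Gli2 was at 11.3, 13.9, 9.60 and 14.3 CPM in ES skin, against 110, 94.2, 151 and 86.8 CPM in E skin, a log2 difference of -2.81 ± 0.26 (adjusted p = 0.000599). Gli3 was at 43.5, 52.4, 44.9 and 61.0 CPM in ES skin, against 274, 267, 271 and 100 CPM in E skin, a log2 difference of -1.76 ± 0.35 (adjusted p = 0.00715). The Gli3 difference was smallest at E14.5, 1.64-fold, the age at which E skin itself had its lowest Gli3.

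Shh and Ihh were removed by the low-count filter and have no test there. Shh gave 3 reads over the 4 ES libraries and 968 over the 4 E libraries. Scaled to depth, this is 163-fold lower in ES skin, with a 95% interval of 55.8 to 794 from counting error only. The fold rests on the early ages. Without the E library of E9.5 it was 99.2, and at E12.5, with 1 read in ES skin and 8 in E skin, it was 2.26. Ihh gave 2 reads in ES skin and 161 in E skin, 40.8-fold lower (11.1 to 340 from counting error only). Without the E library of E12.5, which held 121 of those 161 reads, it was 13.9-fold lower, and at E10.5, with 1 read in ES skin and 3 in E skin, 1.85-fold lower. Dhh was the exception, at 0.794, 1.28, 1.33 and 1.04 CPM in ES skin and 0.652, 0.836, 1.29 and 1.21 CPM in E skin. The Dhh groups overlapped, and its log2 difference of 0.50 ± 0.37 did not pass (adjusted p = 0.275).

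Of the 7 members tested, 6 were thus lower in ES skin, 0 higher and 1 did not pass. Over all 16588 genes tested 58.8% were called, 4893 higher and 4861 lower, so that being called was common. The median log2 difference was -2.30 over the 7 members and -0.01 over all genes. Leaving out any 1 skin library gave 6 or 7 members called. The summed level of 6 genes of dividing cells was 170 to 258 CPM in ES skin and 1650 to 2956 CPM in E skin. That of 6 dermal fibroblast genes was 6065 to 8492 CPM in ES skin and 482 to 19616 CPM in E skin. The 7 globin genes of red cells summed to 0 to 0.148 CPM in ES skin, with at least 6 of 7 at 0 in each library, and to 2325 to 8388 CPM in E skin. The endothelial list summed to 18.9 to 39.1 CPM in ES skin and 310 to 604 CPM in E skin. Their part in the Hedgehog difference was not tested.

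**Figure D2:**
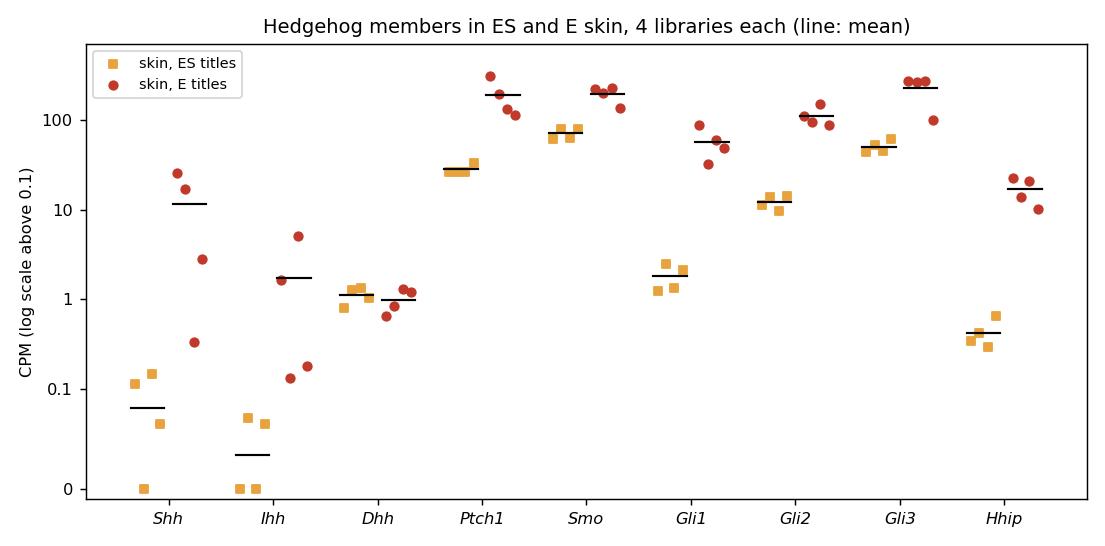
CPM of each Hedgehog member (log scale above 0.1 CPM, linear below) in the 4 ES skin libraries, left, and the 4 E skin libraries, right, in order of age within each set, with a line at the mean. The sets overlap for Dhh, and 58.8% of all tested genes were called between them. The ratio of the means is largest for Shh and Ihh, which had 0 or 1 read in each ES library.

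Around the core genes, all 5 receptors and coreceptors of the second tier were lower in ES skin, in the comparison that called 58.8% of all genes. Lrp2, an endocytic receptor that binds Shh, was at 0.148 to 0.583 CPM in ES skin and 3.45 to 35.3 CPM in E skin (log2 -4.72 ± 0.87). Of 7 genes for making and releasing ligand, 6 were tested, 4 were lower and 1 was higher. Scube3 and Scube2, secreted carriers of the lipid-bearing ligand, were lower by log2 -6.02 ± 0.49 and -5.65 ± 0.72. Hhat, the enzyme that attaches palmitate to the ligands, was higher by 0.93 ± 0.24, at 15 to 15.5 CPM in ES skin and 7.92 to 12.2 CPM in E skin.

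Of 18 cilium and Gli-control genes, 10 were lower, 1 was higher and 7 did not pass, a share called near the 58.8% of all genes, with a median log2 difference of -0.62. Kif7, a ciliary kinesin that regulates the Gli proteins, was lower by log2 -2.64 ± 0.27, and Sufu, which holds Gli proteins inactive, by -1.41 ± 0.22. Spop, which targets Gli proteins for degradation, was higher by 0.75 ± 0.15. Of 19 genes known to respond to Hedgehog in some tissue, 15 were tested, 5 were lower and 2 were higher, again against 58.8% of all genes called. Pax1 of the sclerotome was lower by log2 -5.68 ± 0.60 and Nkx6-1 of the ventral neural tube by -5.14 ± 1.47. The Nkx6-1 difference rests on the early ages, with 2, 7, 4 and 3 reads in ES skin from E9.5 to E14.5. In E skin it was at 92.8, 59.1, 3.67 and 0.269 CPM, the last against 0.194 CPM in ES skin. Grem1, a BMP antagonist, was at 762 to 1258 CPM in ES skin and 12.2 to 47.4 CPM in E skin (log2 5.73 ± 0.50). Ccnd1, a cell cycle gene, was higher by 1.70 ± 0.28, while all 6 genes of the dividing-cell list were lower.

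In the AGM, Shh and Hhip were lower and Ihh was higher under the label E11.5 than under E10.5, while no receptor or Gli gene passed the test. Shh was at 19.4 and 15.6 CPM under the label E11.5, against 25.9 and 31.5 CPM under the label E10.5. Both values under the label E11.5 lay below both under the label E10.5, and the log2 difference was -0.62 ± 0.17 (adjusted p = 0.0287). Ihh went the other way, at 2.30 and 1.90 CPM under the label E11.5 and 0.449 and 0.891 CPM under the label E10.5 (log2 1.73 ± 0.36, adjusted p = 0.00968). Hhip was at 14.7 and 15.8 CPM under the label E11.5 and 28.4 and 26.0 CPM under the label E10.5 (log2 -0.75 ± 0.11, adjusted p = 0.0026). Thus 1 of 9 members was higher and 2 were lower in that comparison, in which 27.2% of all tested genes were called.

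Ptch1 was at 327 and 281 CPM under the label E11.5, against 260 and 244 CPM under the label E10.5. The groups did not overlap, and the log2 difference of 0.36 ± 0.12 missed the threshold (adjusted p = 0.053). With the sequencing round as a block, which called 48.2% of all genes, it passed (adjusted p = 0.000374), as it did with DESeq2 (adjusted p = 0.0202), with median-of-ratios scaling (adjusted p = 0.044) and without the low-count filter (adjusted p = 0.00931). Dhh was at 1.29 and 1.49 CPM under the label E11.5 and at 1.88 and 1.78 CPM under the label E10.5, and did not pass. Smo was at 249 and 208 CPM and Gli2 at 101 and 83.3 CPM under the label E11.5, against 249 and 225 CPM for Smo and 102 and 84.9 CPM for Gli2 under the label E10.5. Gli1 was at 97.6 and 75.5 CPM and Gli3 at 182 and 162 CPM under the label E11.5, against 101 and 90.9 CPM for Gli1 and 184 and 165 CPM for Gli3 under the label E10.5. None of these 4 genes passed, and their log2 differences lay between -0.06 and 0.07.

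**Figure D3:**
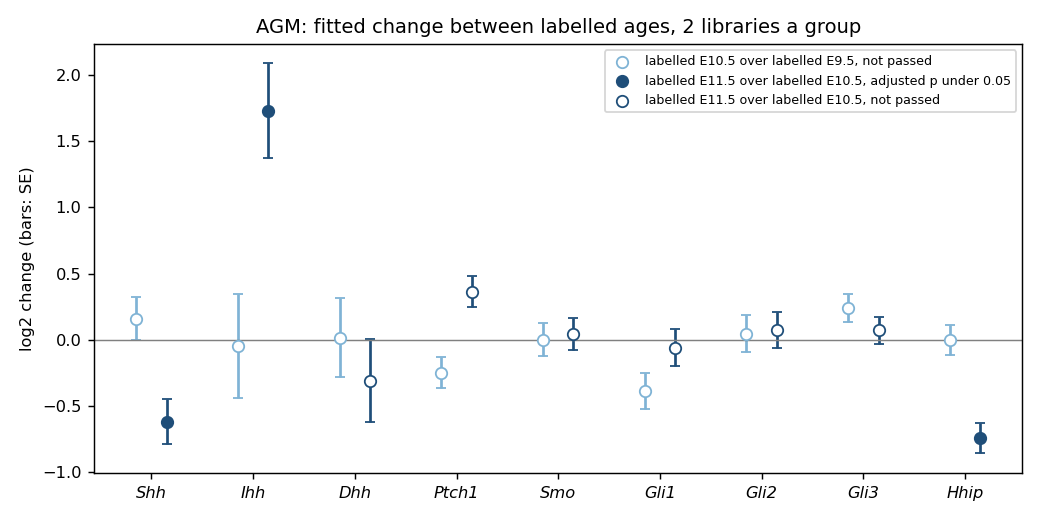
Fitted log2 difference of each Hedgehog member between neighbouring labelled ages of the AGM (vertical axis, bars are SE, 2 libraries a group), with filled points where the adjusted p passed. Between the labels E11.5 and E10.5 Ihh lies above 0 and Shh and Hhip below it, and no member passed between E10.5 and E9.5.

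The calls for both ligands rested on few libraries. Ihh missed the threshold without the round 1 library labelled E10.5 (adjusted p = 0.0621) or the round 1 library labelled E11.5 (adjusted p = 0.0525). Shh missed it without the round 2 library labelled E10.5 (adjusted p = 0.153) or the round 2 library labelled E11.5 (adjusted p = 0.146). In a fit of all 14 libraries, whose spread includes the difference between ES and E skin, none of the 3 members was called (adjusted p = 1 each).

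Between the labels E10.5 and E9.5, 0 of 9 members were called, in a comparison that called 2.59% of all tested genes. Gli1 was at 101 and 90.9 CPM under the label E10.5, against 134 and 128 CPM under the label E9.5, while Ptch1 was at 260 and 244 CPM under the label E10.5, against 328 and 294 CPM under the label E9.5. The groups overlapped for neither gene. Their log2 differences were -0.39 ± 0.14 for Gli1 (adjusted p = 0.174) and -0.25 ± 0.12 for Ptch1 (adjusted p = 0.293). Gli3 was at 184 and 165 CPM under the label E10.5 and 152 and 154 CPM under the label E9.5 (log2 0.24 ± 0.10, adjusted p = 0.261). With the round as a block, which called 24.1% of all genes, these 3 members passed, at adjusted p = 0.00195 for Gli1, 0.0114 for Ptch1 and 0.0144 for Gli3. Shh was at 25.9 and 31.5 CPM under the label E10.5 and 29.4 and 23.9 CPM under the label E9.5, with overlapping groups. Hhip was at 28.4 and 26.0 CPM under the label E10.5 and 28.6 and 27.9 CPM under the label E9.5.

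Among the wider pathway, 6 of 19 responding genes were higher and 7 lower under the label E11.5 than under E10.5, where 27.2% of all genes were called. Nkx2-9 and Olig2, genes of the ventral neural tube, were higher by log2 4.03 ± 0.32 and 2.10 ± 0.15. Pax9 and Nkx3-2, genes of the sclerotome, were lower by -2.86 ± 0.13 and -2.63 ± 0.37. Between the labels E10.5 and E9.5, where 2.59% of all genes were called, Olig2 (log2 4.69 ± 0.24) and Nkx2-9 (2.89 ± 0.57) were also higher, while Foxf2 (-1.02 ± 0.17) and Foxf1 (-0.94 ± 0.18), genes of the mesenchyme beside the gut, were lower.

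Of 7 genes for making and releasing ligand, 1 was higher and 4 were lower under the label E11.5 than under E10.5, again against 27.2% of all genes. Scube2 was at 31.9 and 26.2 CPM under the label E11.5 and at 1.10 and 2.09 CPM under the label E10.5 (log2 4.27 ± 0.27). Hhat was lower by -0.80 ± 0.16, and Gpc5, a glypican, by -1.84 ± 0.52, at 1.36 CPM or less in all 6 AGM libraries. Of 5 receptors and coreceptors, Lrp2 was higher (log2 2.41 ± 0.17) and Gas1, a coreceptor that binds ligand, was lower (-0.47 ± 0.09). Of 18 cilium and Gli-control genes, 0 were higher and 5 lower, a share near that 27.2%, among them Stk36, a kinase related to fly Fused, (-0.63 ± 0.14) and the ciliary receptor gene Gpr161 (-0.46 ± 0.09).

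Markers of Hedgehog sources moved between the same AGM labels. The gut endoderm list, 7 genes, summed to 132 and 105 CPM under the label E11.5 and 37.4 and 42.2 CPM under the label E10.5, with 5 of 7 genes called higher. The floor plate and notochord gene Foxa2 was at 11.4 and 10.6 CPM under the label E11.5 and 5.43 and 5.97 CPM under the label E10.5, and the notochord gene Noto at 1.69 and 1.86 CPM under the label E11.5 and 0.0816 and 0 CPM under the label E10.5. The 7 notochord and floor plate genes together summed to 284 and 234 CPM under the label E11.5 and 307 and 322 CPM under the label E10.5. The cartilage list summed to 307 and 284 CPM under the label E11.5, against 1029 and 811 CPM under the label E10.5. The part of these tissues in the ligand differences was not tested.

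In E skin, which has 1 library at each age, Shh and Ihh changed by larger ratios than any other member at the steps E12.5 against E10.5 and E14.5 against E12.5. Over the 4 ages, from E9.5 to E14.5, Shh had 512, 385, 8 and 63 reads, which is 25.7, 16.9, 0.333 and 2.82 CPM. At E12.5 it was 50.9-fold lower than at E10.5 (ratio 0.0197, 95% interval 0.00843 to 0.0391). At E14.5 it was 8.46-fold higher than at E12.5 (4.04 to 20.5). These intervals cover counting error only, and no biological spread.

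Over the same ages Ihh had 33, 3, 121 and 4 reads, which is 1.66, 0.132, 5.04 and 0.179 CPM. It peaked at the age at which Shh was lowest. The ratio of E12.5 to E10.5 was 38.2 (12.8 to 188) and that of E14.5 to E12.5 was 0.0355 (0.00953 to 0.0933). Dhh, at 0.652, 0.836, 1.29 and 1.21 CPM from E9.5 to E14.5, differed between no 2 neighbouring ages beyond its counting interval.

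Some cell-type genes moved along with a ligand in these 4 libraries, and others did not. Foxa2 was at 12.9, 7.40, 0.25 and 0.403 CPM from E9.5 to E14.5, and the neural tube gene Olig2 at 51.7, 20.7, 1.0 and 0.0448 CPM. Both were thus low at the ages at which Shh was low, though Ntn1, on the same notochord and floor plate list, stayed between 145 and 267 CPM. The 6 cartilage genes summed to 479, 608, 1984 and 92.9 CPM, and Matn1, a cartilage matrix gene, was at 0.0502, 0.044, 14.9 and 0.224 CPM. The limb bud list, markers of a Shh source, summed to 44.9, 5.68, 606 and 27.2 CPM. It was highest at E12.5, where Ihh was highest but Shh was lowest.

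Hair placode genes summed to 24.9, 16.8, 73.4 and 145 CPM over the same ages, and the placode markers Edar and Dkk4 reached 20.7 and 12.3 CPM at E14.5, against 2.37 and 0.0417 CPM at E12.5. Lhx2, on the same list, ran the other way, at 1.43 CPM at E14.5 against 43.7 CPM at E12.5, where it made up most of the sum. Schwann cell precursor genes, markers of a Dhh source, summed to 148, 254, 238 and 222 CPM from E9.5 to E14.5. The part of these cell types in the ligand levels was not tested.

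**Figure D4:**
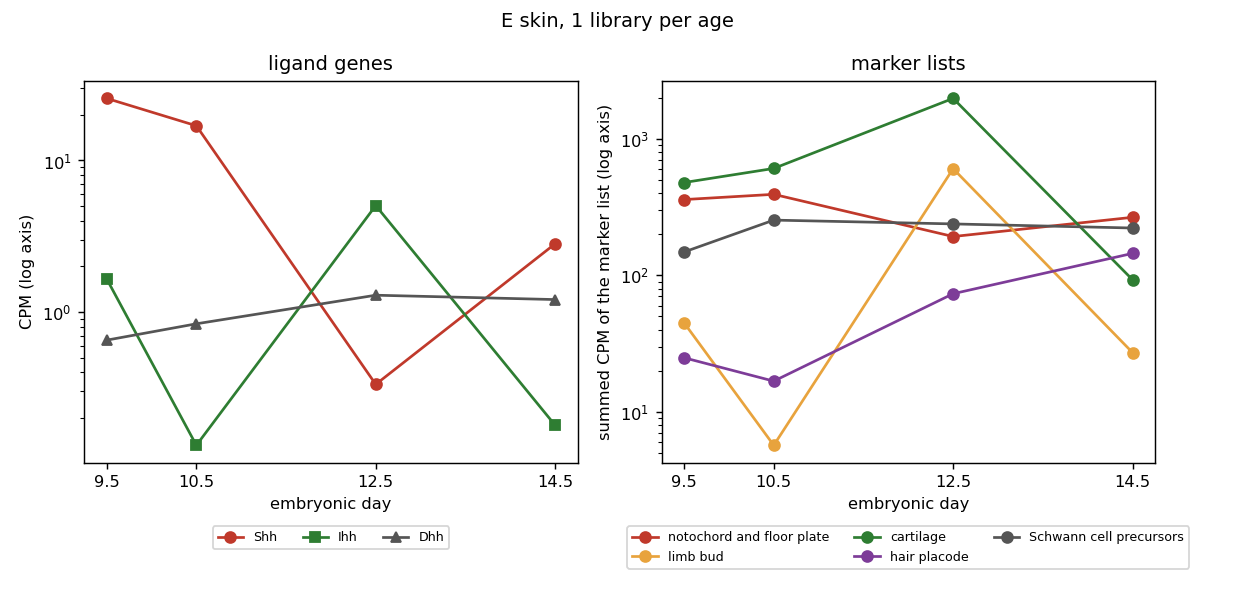
Left, CPM of the 3 ligand genes in E skin by embryonic day (log axis, 1 library per age). Right, the summed CPM of 5 marker lists in the same libraries (log axis). Cartilage and limb bud genes are highest at E12.5, where Ihh is highest and Shh is lowest. Hair placode genes are highest at E14.5, where Shh was 8.46-fold above its E12.5 level.

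In E skin Ptch1 was highest at E9.5 and lowest at E14.5, at a ratio of 0.368 between them (0.351 to 0.385). Gli1 at E10.5 was 0.363 of its E9.5 level (0.332 to 0.396). At E12.5, where Shh was lowest and Ihh highest, Gli1 was 1.86 times its E10.5 level (1.70 to 2.04). Gli3 stayed between 267 and 274 CPM from E9.5 to E12.5, and at E14.5 was at 0.369 of its E12.5 level (0.352 to 0.388). Gli2 peaked at E12.5 and at E14.5 stood at 0.573 of that (0.542 to 0.605). Smo at E14.5 was at 0.602 of its E12.5 level (0.575 to 0.629), and Hhip at 0.485 (0.413 to 0.568). Past 2-fold were 2 members, Gli1 and Ihh, between E10.5 and E9.5, where 12.4% of genes with 1 CPM or more in either library were. Between E12.5 and E10.5 they were the 2 ligand genes Shh and Ihh (26% of genes). Between E14.5 and E12.5 they were 4, Shh, Ihh, Gli3 and Hhip (26% of genes).

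With the E and ES libraries of an age treated as duplicates, as the study's design text has it, 0 of 9 members were called in each of the 3 skin comparisons. There 0% of the 18968 genes tested were called by edgeR, with 2, 22 and 38 genes at an unadjusted p under 0.05 for E10.5 against E9.5, E12.5 against E10.5 and E14.5 against E12.5. DESeq2 called 0, 0 and 4 genes. A fit of the 10 libraries without ES skin treats each single skin library as varying like the AGM pairs, and its p-values hold only under that assumption.

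In that fit, E10.5 against E9.5 had 0 members higher and 4 lower, where 6.43% of all genes were called. They were Gli1 (log2 -1.46 ± 0.20, adjusted p = 0.00483), Ihh (-3.60 ± 0.69, adjusted p = 0.0203), Ptch1 (-0.67 ± 0.16, adjusted p = 0.0438) and Hhip (-0.73 ± 0.18, adjusted p = 0.048). Gli1, Ptch1 and Hhip are known Gli targets. Shh did not pass, but its change of -0.60 ± 0.24 was close to those of Ptch1 and Hhip. Its ratio was 0.66 (0.576 to 0.754 from counting error only). Whether the change of Shh differed from that of the targets was not tested.

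E12.5 against E10.5 had 4 members higher and 2 lower, with 30.1% of all genes called. Ihh (5.15 ± 0.63), Gli1 (0.85 ± 0.19), Gli2 (0.64 ± 0.19) and Hhip (0.57 ± 0.17) were higher, and Shh (-5.69 ± 0.39, adjusted p = 4.69e-05) and Ptch1 (-0.58 ± 0.16) lower. Gli1 and Ptch1, both readouts of the pathway, therefore moved in opposite directions at this step. E14.5 against E12.5 had 1 member higher, Shh (3.19 ± 0.46, adjusted p = 0.00149), and 5 lower, with 27.5% of all genes called. The lower members were Ihh (-4.65 ± 0.60), Gli3 (-1.31 ± 0.15), Hhip (-0.91 ± 0.18), Gli2 (-0.67 ± 0.19) and Smo (-0.60 ± 0.17).

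Within the same 10-library fit, Scube2 was higher at E14.5 than at E12.5 (log2 2.37 ± 0.29). Of the 19 responding genes, 0 were higher and 14 lower at E14.5 (27.5% of all genes called), with Hand2 of the limb bud (-4.78 ± 0.20) and Foxc2 of the mesoderm (-4.69 ± 0.28) at the extreme. At E12.5 against E10.5 (30.1% of all genes called), 5 were higher, led by Hand2 (7.22 ± 0.25) and Osr1 (5.91 ± 0.39), and 11 lower, led by Nkx2-9 (-8.11 ± 1.23) and Olig2 (-4.41 ± 0.26). At E10.5 against E9.5 (6.43% of all genes called), 0 were higher and 6 lower, led by Hand2 (-5.12 ± 0.26) and Foxf1 (-3.94 ± 0.33).

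Between tissues at the same labelled age, Gli1 was higher in AGM than in both skin libraries, and Gli3 lay between them. At E10.5 Gli1 was at 101 and 90.9 CPM in AGM, 2.49 CPM in ES skin and 32 CPM in E skin. At E9.5 it was at 134 and 128 CPM in AGM, 1.25 CPM in ES skin and 88.2 CPM in E skin. Gli3 was at 184 and 165 CPM in AGM at E10.5, 52.4 CPM in ES skin and 267 CPM in E skin, and at E9.5 it was at 152 and 154 CPM in AGM, 43.5 CPM in ES skin and 274 CPM in E skin. Tissue and sequencing project cannot be told apart, since no project holds both. Because the stage genes above ran against the AGM labels, AGM and skin under the same label may also differ in age. Tissue and age may then not be told apart in any of these comparisons.

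In the fit of all 14 libraries 0 of 9 members were called at either age, and 0% of the 20429 genes were, with 950 and 847 genes at an unadjusted p under 0.05 at E9.5 and E10.5 and 308 and 272 called by DESeq2. With project and round as a block within tissue, 6 members were higher in AGM at E9.5 (21.2% of genes called) and 5 at E10.5 (18.8%), Gli1 by log2 3.19 ± 0.46 and 3.33 ± 0.48. This block sets the skin level midway between its E and ES libraries, so the low ES values enter these calls. At E9.5, E skin alone lay below both AGM libraries for Gli1, Smo, Dhh and Hhip and between them for Shh and Ptch1. It lay above both for Ihh, Gli2 and Gli3. Without ES skin, Gli1 was higher in AGM by 0.52 ± 0.17 at E9.5 (adjusted p = 0.0424) and by 1.6 ± 0.18 at E10.5 (adjusted p = 0.000408). Gli3 was then lower in AGM by -0.89 ± 0.12 at E9.5 (adjusted p = 0.00118) and -0.60 ± 0.12 at E10.5 (adjusted p = 0.00891). The direction for Gli3 depends on the ES libraries, since with the block its log2 differences at the earlier and the later age were 0.31 and 0.42, neither past the threshold. Without ES skin, Dhh was also higher in AGM at E9.5 (1.47 ± 0.47), and Hhip (1.0 ± 0.16), Ihh (2.31 ± 0.70) and Shh (0.77 ± 0.21) at E10.5. In that fit 33.9% of all genes were called at E9.5 and 24% at E10.5. With median-of-ratios scaling of all 14 libraries the median of all genes shifted to log2 -0.154 at E9.5 and -0.141 at E10.5.

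The change between the labels E10.5 and E9.5 was also set against itself in the 2 tissues. The stage genes above ran against the AGM labels, so the 2 changes may not run in the same direction of time. Over all 14 libraries 0 of 9 members differed and 0% of genes were called, with 62 genes at an unadjusted p under 0.05. Without ES skin, which called 7.67% of genes, the AGM change minus the skin change was 1.08 ± 0.23 for Gli1 (adjusted p = 0.0301) and 3.55 ± 0.81 for Ihh (adjusted p = 0.0362). The change of Gli1 on the log2(CPM + 1) scale was -0.39 and -0.49 in the AGM rounds, 0.64 in ES skin and -1.43 in E skin.

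Genes whose pattern was most like that of a member were taken by Pearson's r of log2(CPM + 1) over the 10 libraries of AGM and E skin, among 11761 genes with a mean of 5 CPM or more. Libraries of one tissue in this set share its sequencing projects, and the values are descriptive. For Gli1 the 5 nearest were Arhgap45 (r = 0.951), Gata4 (0.947), Dmac2 (0.933), Fendrr (0.926) and Tcf21 (0.926). Gata4 was at 32.7, 0.396, 1.67 and 0.851 CPM in E skin from E9.5 to E14.5 and at 12.4 to 47.7 CPM in AGM. For Shh they were Poc1a (0.97), Chka (0.958), Miip (0.958), Gm43300 (0.953) and Scrn2 (0.952). For Gli3 the nearest 4 were Washc5 (0.976), Zfp608 (0.971), Ythdf3 (0.969) and Lancl2 (0.968).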

How the data were processed

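The authors deposited 1 table of raw read counts per gene for all 14 libraries. Per the submitters' processing notes, the tools were featureCounts 1.6.0, STAR 2.5.0a, Trimmomatic 0.36 and DESeq2 1.20.0, with the genome GRCm38 (mm10). Columns were tied to samples by their names. For round 2 of the AGM these hold a number but no age, so the age that round 1 links to that number was used, an assumption on which every AGM test rests.

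CPM is the count divided by the library's total count. The fitted log2 differences rest on further scaling (TMM in the main test), so they need not equal ratios of the printed CPM. Folds of pooled reads and ratios of single libraries are without that scaling. The main test was the quasi-likelihood test of edgeR 4.0.16 (R 4.3.3, filterByExpr, TMM, glmQLFit, glmQLFTest), with Benjamini-Hochberg adjustment over all tested genes and calls under 0.05. AGM ages were fitted on 6 libraries, skin ages on 8, tissue comparisons on 14, and ES against E skin with age as a block. The SE of an edgeR difference is its absolute log2 value divided by the square root of the quasi-likelihood F statistic. Ratios of single libraries carry exact binomial 95% intervals. Alternatives were DESeq2 1.42.0, median-of-ratios scaling, no low-count filter, the replicate block, other sets of libraries and each library left out. The combination of 10 libraries with the AGM round as a block, and the pooled ligand folds with a skin library left out, were added after seeing the data. Replicate numbers pair samples: deviations of same-numbered libraries correlated at 0.753 to 0.919 over 6 pairs of skin ages and at 0.256 to 0.319 over 3 pairs of AGM ages, so a number marks a shared project or round. The scripts were tested on simulated data.

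All 9 members are named. Other pathway genes were named by a rule, the top 2 log2 changes in each direction per list among genes called. Some genes that the rules name are not reported here. The members and lists were chosen with earlier results of these data known. Of the members, 8 have the same coordinates in GENCODE M21. Start-site windows are from RefSeq, GRCm38.p6.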

Additional observations from a re-analysis of the deposited data

How the results depend on the processing

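No member's difference that was called under the settings of the main text's AGM and ES skin tests changed sign under an alternative run. Of single members' values with 1 library left out, 71 kept their side of the threshold, 4 lost it and 1 gained it. Under other settings 48 kept it, 3 lost it and 8 gained it. Uncalled tissue differences did change sign, as for Ptch1 at E9.5, with log2 0.87 over 14 libraries and -0.03 without ES skin. For AGM E10.5 against E9.5, 457 genes became 929 with DESeq2, 1769 without the low-count filter (1 member, Gli1), 4237 with the replicate block (3 members) and 0 in the fit of all 14 libraries. With 1 library left out they ran from 1, without the round 2 library labelled E10.5, to 462, with 24 without the round 1 library labelled E9.5 and 104 without the round 1 library labelled E10.5. For AGM E11.5 against E10.5, 4791 genes became 8491 with the replicate block (4 members), 0 (0 members) in the fit of all 14 libraries and 2794 to 3156 with 1 library left out.

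In skin, DESeq2 called 4 genes for E14.5 against E12.5. The 10 libraries without ES skin gave 1282 genes (4 members) for E10.5 against E9.5, 6003 (6) for E12.5 against E10.5 and 5488 (6) for E14.5 against E12.5, and with the AGM round as replicate block 3872 (4), 9568 (6) and 9023 (6). For AGM against skin, DESeq2 called 308 genes at E9.5 and 272 at E10.5, the replicate block 4321 (6 members) and 3844 (5), the 10 libraries 6759 (3) and 4779 (5), and the 10 libraries with the block 10234 (5) and 8491 (8). For the difference of the tissues' changes, the 10 libraries called 1530 genes (2 members), and 5137 (6) with the block. The causes were not tested. ES against E skin gave 7653 to 10547 genes with 1 library left out and 10579 with no replicate block, and 8 members were called without the low-count filter. The replicate block changed no other call of a member.

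In E skin Dhh rested on 13 to 31 reads per library and Ihh on 3 to 121. In ES skin Shh and Ihh had 0 or 1 read per library, so changes of either within ES skin were not detectable at this depth.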
